A study of Mus musculus with 8 samples.

Results

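Interferon-responding epithelial cells of the mouse tongue were the cells described here. A cell was taken as epithelial when it held no UMI of the pan-leukocyte gene Ptprc and at least 0.5% of its UMIs came from the keratins Krt5, Krt14, Krt15, Krt13 and Krt6a. It was taken as interferon-responding when at least 4 of the 6 interferon-stimulated genes Ifi44, Ifit1, Ifit3, Isg15, Rsad2 and Usp18 had a UMI (a unique molecular identifier, 1 captured transcript). Cells also needed 1000 to 5500 genes, at most 30000 UMIs, at most 7% mitochondrial UMIs and at most 1 of 6 mitotic genes detected. By this rule 924 cells were members, of 7430 epithelial cells that met the rest of it, 25199 cells within the limits and 42550 barcodes in the 8 libraries. The 6 markers chose the members, so their levels are given as descriptions.

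The study asked how the human papillomavirus oncoproteins E6 and E7, which disable the p53 and retinoblastoma pathways, and an active form of YAP, a transcriptional co-activator restrained by Hippo signalling, change the oral epithelium at the start of a carcinoma. Whole tongue epithelium was dissociated 15 days after induction and profiled by droplet single-cell RNA sequencing, with 2 libraries in each of 4 groups. All mice carried Krt14-CreERT and LSL-rtTA, so that tamoxifen injected into the tongue opened rtTA only in cells that had used the Krt14 promoter, and doxycycline food then switched on the tetON genes. N mice carried nothing further that differed between groups, E mice carried tetON_E6-E7, Y mice tetON_YAP1S127A, and EY mice both. The study's methods give all of them a tetON_H2B-GFP reporter as well, and ages balanced across groups. Leukocytes and other unrecombined cells of the tongue do not carry active transgenes. The title of library N2 holds 2 animal numbers, so it may pool mice.

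Interferons are signalling proteins that cells release on sensing foreign or misplaced nucleic acid. Type I and type III interferons (alpha, beta and lambda) act through JAK kinases and a transcription factor complex that binds a DNA element with a repeated GAAA core, the ISRE. Interferon gamma from lymphocytes acts through its own receptor and other sites, and its targets overlap. Lambda interferon acts mainly on epithelial cells, since its receptor is largely restricted to them. The response limits virus growth and, through chemokines, recruits lymphocytes.

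Promoters of 4 rule markers and of Cxcl10 are shown because a core of that element was found in them. RefSeq windows of the 250 bases before the transcription start, on build GRCm38.p6, were searched on both strands for GAAA, any 2 bases and GAAA. The core stood in 978 of 32851 windows over all genes (2.98%). It stood in 4 of the 5 windows of the rule markers that had an entry, in 13 of 45 windows of antiviral effector genes (28.9%), and in 9 of 14 windows of genes led by interferon gamma (64.3%). Nucleic acid sensor genes had it in 2 of 16 windows (12.5%). Among lists of another kind, G1/S and replication genes had it in 0 of 23 windows and p53 targets in 0 of 16. YAP targets had it in 1 of 13, squamous differentiation genes in 1 of 16 and meiotic genes in 2 of 17. Usp18 had no entry and the Ifi44 window held no match, which says only that these letters were not in that window. Of other leading genes searched, Cmpk2, Oasl1, Irf7, Ifi47, Slfn2, Rnf213 and Sp100 held no match either, while Stat2 held 1. Below, 60 bases around the core are given on the gene's own strand, 5′ to 3′, with the core in capitals. Ifit1 had 2 cores, Ifit3 had 2 of which 1 is in the stretch shown, and Isg15 had a run of 3 overlapping ones. The windows were chr19:34640779-34640838 (plus strand) for Ifit1, chr19:34583382-34583441 (plus) for Ifit3, chr4:156200850-156200909 (minus) for Isg15, chr12:26456538-26456597 (minus) for Rsad2 and chr5:92349068-92349127 (minus) for Cxcl10.
Ifit1: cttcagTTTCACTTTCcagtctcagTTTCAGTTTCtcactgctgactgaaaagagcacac
Ifit3: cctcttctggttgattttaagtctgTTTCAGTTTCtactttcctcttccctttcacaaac
Isg15: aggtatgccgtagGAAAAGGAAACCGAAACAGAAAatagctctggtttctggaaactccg
Rsad2: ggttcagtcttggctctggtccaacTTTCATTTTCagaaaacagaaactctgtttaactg
Cxcl10: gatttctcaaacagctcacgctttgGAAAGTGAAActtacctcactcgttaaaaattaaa

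The libraries held 46483469 to 102427359 UMIs on 2916 to 8139 barcodes. Epithelial cells were unevenly supplied, with 2236 in N1 and 2543 in E1 but 260 in N2 and 112 in EY1. Median UMIs were higher in members than in the other epithelial cells of 7 libraries, such as 12801 against 11409.5 in E1 and 14544 against 13089 in N1, and lower in EY2, at 12979 against 13098. The gap was widest in EY1, at 26748 against 9036. No pair of libraries shared more than 19 barcodes, and 17 of the 657 members of E1 had a barcode that also occurred elsewhere. Yap1 served as a check on the Y and EY labels. CPM denotes UMIs scaled to the same total in each library and class. In members Yap1 stood at 45.7 CPM in N1, 34.9 in E1 and 43.2 in E2, against 268 in Y1, 405 in Y2 and 204 in EY2, so Yap1 matched the labels in these 6 libraries. N2 and EY1 were not among them. Yap1 was detected in 63.6% of members and 59.4% of other epithelial cells of EY1, beside 64.8% and 58.0% in E2. In members, with median UMIs of 26748 in EY1 and 25085 in E2, detection did not tell these libraries apart. Other cells differed in depth, with median UMIs of 9036 in EY1 and 23299 in E2. In other cells of E1 and N1, at 11409.5 and 13089, Yap1 was detected in 32.1% and 36.8%, below EY1. The part of depth in this check was not tested. The E6-E7 transcript was not analysed here.

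Epithelial cells with the interferon signature were most frequent in E tongues, less frequent in EY tongues and rare in N and Y tongues. They made up 1.61% of epithelial cells in N1 (36 cells, with 1.13 to 2.22 as the 95% interval by the exact Clopper-Pearson method) and 1.15% in N2 (3 cells, 0.239 to 3.33). In E1 the share was 25.8% (657 cells, 24.1 to 27.6) and in E2 29.2% (108 cells, 24.6 to 34.1). Y1 had 3.32% (30 cells, 2.25 to 4.70) and Y2 4.24% (24 cells, 2.74 to 6.24). EY1 had 9.82% (11 cells, 5.01 to 16.9) and EY2 12.5% (55 cells, 9.58 to 16.0). These intervals cover counting error only. The order of the group means was E (27.5% ± 2.37, SD, n = 2 libraries), EY (11.2% ± 1.91), Y (3.78% ± 0.652) and N (1.38% ± 0.323), and no neighbouring groups overlapped.

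**Figure D1:**
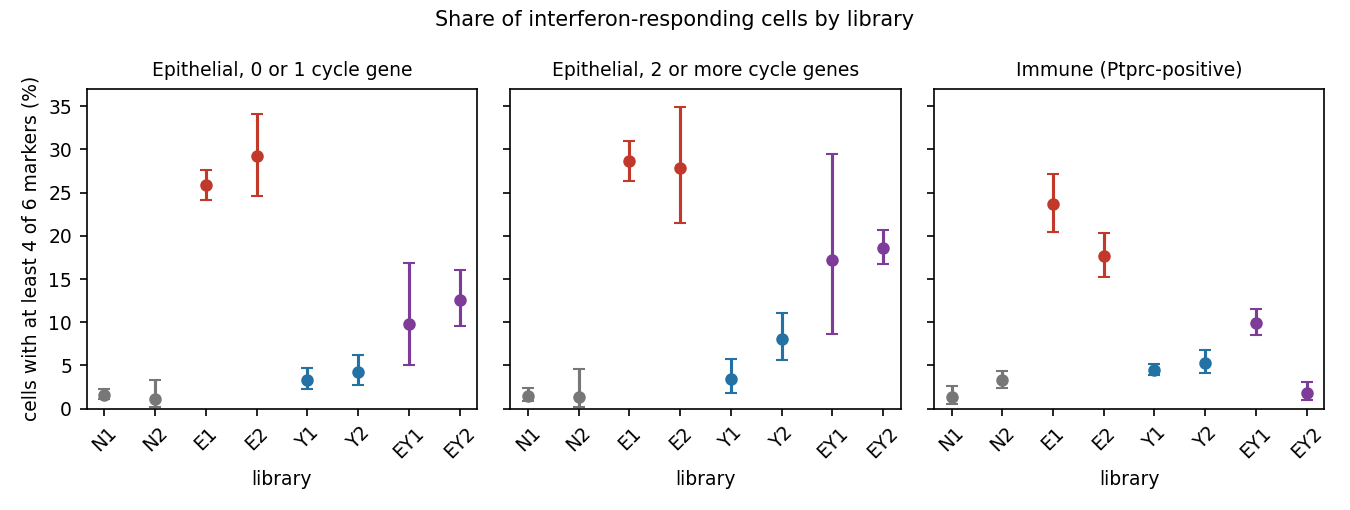
Share of cells with at least 4 of the 6 interferon markers, in percent, among epithelial cells under the rule (left), cycling epithelial cells that the rule leaves out (middle) and immune cells (right), 1 point per library with its exact 95% interval, coloured by group. The 4 libraries with E6-E7 lie between 9.82% and 29.2% among epithelial cells under the rule, above the 1.15% to 4.24% of the 4 libraries without it, whereas among immune cells EY2 (1.85%) lies with the libraries without E6-E7.

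With E6-E7 the mean epithelial share was 19.3% over 4 libraries against 2.58% over the 4 without, a difference of 16.8 percentage points. Every library with E6-E7 was above every library without it. A two-sided exact permutation test gave p = 0.0286, the smallest the 70 labellings allow, and 0.143 after Benjamini-Hochberg adjustment over 5 share tests, so the difference did not pass the adjusted threshold. Because these data were the ground for choosing the markers, the test is not independent evidence of the direction. For YAP the difference was -6.97 points (exact permutation p = 0.429, adjusted 0.429) and the arms overlapped.

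The E6-E7 difference was larger without active YAP than with it. It was 26.1 points between E and N and 7.40 points between EY and Y. The gap of 18.7 points gave p = 0.0556 in an exact permutation over 36 labellings, which is the smallest value that design allows, so it could not pass 0.05.

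Immune cells of the same libraries, defined by a Ptprc UMI and under 0.5% keratin UMIs, carried the signature in some libraries as well. Their responding share was 23.7% in E1 and 17.7% in E2, 9.92% in EY1 and 1.85% in EY2, against 1.37% in N1, 3.29% in N2, 4.51% in Y1 and 5.31% in Y2. E libraries were the highest, but EY2 fell among the libraries without E6-E7. The E6-E7 difference was 9.67 points (exact permutation p = 0.114, adjusted 0.190) and that for YAP -6.11 points (exact permutation p = 0.400, adjusted 0.429). Within each library, the epithelial share minus the immune share differed by 7.09 points with E6-E7 (exact permutation p = 0.0571, adjusted 0.143). When each cell was thinned to 2000 UMIs the difference between epithelial and immune shares turned to -3.08 points, while the epithelial E6-E7 difference stayed positive at 2.27 points, with thinned shares of 4.33% in E1 and 2.16% in E2 against 0.0894% in N1 and 0 of 260 cells in N2, which allows a share of up to 1.15%.

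The mix of marker UMIs was not the same in epithelial members and in responding immune cells. In epithelial members of all 8 libraries Ifi44 took more of the 6 markers' UMIs (5.91 to 20%) than Ifit3 (0 to 4.02%). In responding immune cells of all 8 libraries the order was the opposite, with Ifit3 at 5.07 to 13.1% and Ifi44 at 0.242 to 3.86%. Isg15, a ubiquitin-like protein joined to other proteins during the response, supplied most marker UMIs in epithelial members of 7 libraries, and 42.5% in the 3 members of N2. These genes chose both classes of cells, and the part of free RNA from other cells in the epithelial shares was not tested.

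The number of markers per cell was graded, and members were the upper range of that gradient. Markers such as Ifit3 went undetected in many members, so these counts cannot tell a gradient from separate states. In E1, the numbers of epithelial cells with 0 to 6 markers were 403, 547, 491, 445, 333, 205 and 119. In N1 they were 1693, 366, 100, 41, 26, 9 and 1. Neither library showed a gap between members and other cells. Just inside the limit, 333 members of E1 and 26 of N1 had exactly 4 markers, and just outside it 445 and 41 cells had 3. The cycle limit alone left out 433 further cells in E1, beside its 657 members, 296 in EY2, beside 55 members, and 18 in N1, beside 36.

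**Figure D2:**
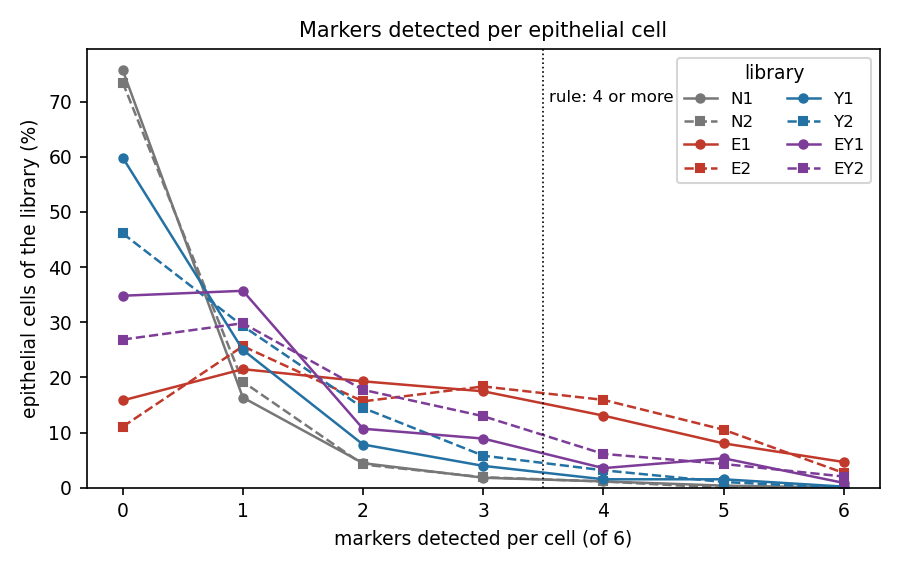
Share of epithelial cells, in percent, by the number of the 6 interferon markers with a UMI, 1 line per library, coloured by group. The lines fall without a gap at the limit of 4 markers, with E1 holding 333 cells at 4 markers and 445 at 3, and N1 holding 26 and 41.

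Members were then set beside the other epithelial cells of their own library, in the 6 libraries with at least 20 members (N1, E1, E2, Y1, Y2 and EY2). N2 with 3 members and EY1 with 11 were left out. Since the rule made this contrast, it was described by log2 differences of CPM + 1 with no test. Of 5209 genes whose mean reached 20 CPM in either class, 234 (4.49%) were higher in members of every library and 206 (3.95%) were lower, and nothing is read from those shares.

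Among the rule markers, Rsad2, which makes the antiviral nucleotide ddhCTP, stood at 114 CPM in members of N1, at 237 and 81.1 CPM in E1 and E2, at 174 and 140 CPM in Y1 and Y2, and at 350 CPM in EY2. In other cells it stood at 0.766, 8.45, 4.90, 1.27, 1.03 and 17.0 CPM. Every member value was above every value of the other cells, by a median log2 difference of 5.34. Ifit1, which binds foreign RNA ends, was at 529, 372, 217, 415, 304 and 239 CPM in members in the same order of libraries. In other cells Ifit1 was at 5.93, 39.7, 31.7, 7.75, 10.9 and 12.9 CPM. For Isg15 the member values of 1358, 1516, 1029, 1185, 1752 and 1593 CPM spread by less than those of the other cells, 40.7, 353, 236, 74.9, 168 and 374 CPM. Ifit3 had the lowest level of the 6 and was detected in 29.5% of the members of E1 and 11.1% of those of N1, although its median difference was 4.74.

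The antiviral effectors that were no part of the rule were higher with the markers. Of 36 at the level limit, 35 were higher in members of every library and 1, Ifi27, was lower in every library, with a median log2 difference of 1.83 against -0.02 over all genes. The largest differences were those of Cmpk2, the kinase gene beside Rsad2 that supplies its substrate (3.71), Oasl1, a restrainer of Irf7 translation (3.13), Ifit2 (2.95), Phf11d (2.70), Oasl2 (2.58) and Herc6, the ligase that attaches Isg15 in mice (2.55). Cmpk2 was at 43.7, 44.0, 25.1, 44.6, 10.3 and 69.8 CPM in members of N1, E1, E2, Y1, Y2 and EY2, and at 0.618 to 3.33 CPM in other cells. The 2 classes did not overlap. Ifi27 ran the other way in each library, at 46.0 to 101 CPM in members against 110 to 183 CPM in other cells.

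All 7 nucleic acid sensors at the level limit were higher in members of every library, with a median of 2.06. They were led by Ddx60 (2.33), Ifih1, which encodes the long double-stranded RNA sensor MDA5 (2.27), Dhx58 (2.22) and Ddx58, which encodes RIG-I (2.06). Dhx58 turned to -0.45 when cells were thinned to 2000 UMIs. Samhd1, a dNTP hydrolase, differed by 1.84 and Adar, which edits double-stranded RNA, by 1.2. Ifih1 stood at 67.6 to 107 CPM in members and at 14.4 to 28.6 CPM in other cells, with no overlap.

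Of 11 interferon transcription factors, 6 were higher in every library. Irf7, the amplifier of interferon transcription, was at 139, 191, 105, 129, 103 and 172 CPM in members and at 6.93, 55.7, 25.4, 11.6, 14.1 and 34.4 CPM in other cells (median log2 difference 2.53). Stat2, which carries the type I and type III signal to the nucleus, differed by 1.85 and its partner Irf9 by 1.14, with Irf1 at 0.99 and Irf2 at 0.77.

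Receptors and kinases did not share that pattern. The 3 at the level limit had median differences of -0.33 for Ifngr1, the gamma receptor, and -0.17 each for Jak1 and Ifnar2, the kinase and the type I receptor, and none was higher in every library. Jak1 was at 61.6 to 76.1 CPM in members and 69.1 to 86.5 CPM in other cells. Among feedback inhibitors, Socs1, which blocks JAK kinases, was higher in every library (1.26, but -0.73 thinned), while Socs3 had -0.61 and Otud4 0.04.

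Genes led by interferon gamma were also high in members. Of 10 at the level limit 7 were higher in every library, with a median of 2.58. Iigp1, an immunity-related GTPase, was at 183, 105, 45.2, 99.2, 4.11 and 32.1 CPM in members, against 6.76, 11.2, 2.0, 3.81, 1.34 and 3.72 CPM in other cells. The Y2 members lay inside the range of the other cells. Gbp2 (3.02), Igtp (2.82), Gbp6 (2.71) and Gbp3 (2.45) encode further interferon-inducible GTPases. Cxcl9, a T cell attractant, had a median of 2.85 but was higher in 4 of 6 libraries only. Members of N1 had 630 CPM of Cxcl9 and those of Y2 2.05 CPM. Of 17 genes of MHC class I presentation, 16 were higher in every library, with a median of 1.04. They included the immunoproteasome subunits Psmb10 (1.49) and Psmb9 (1.21), the peptide transporter Tap2 (1.35) and the non-classical class I genes H2-T22 (1.26), H2-T23 (1.16) and H2-Q6 (1.12, but -1.11 thinned).

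**Figure D3:**
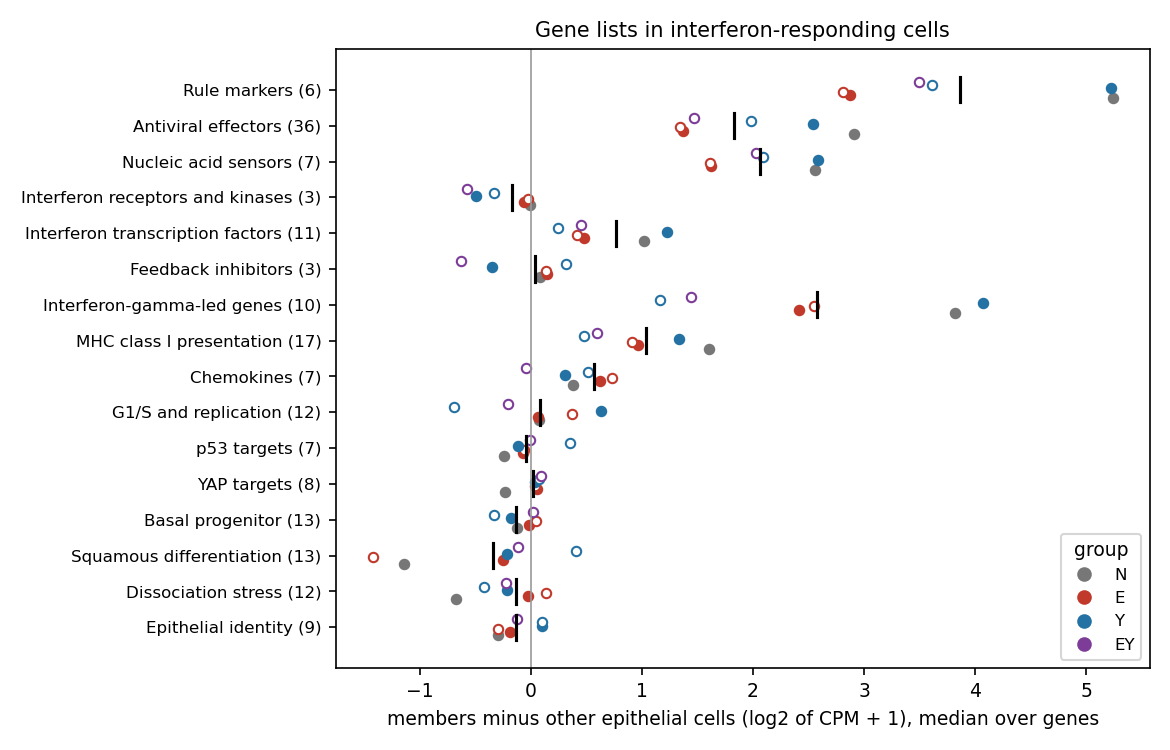
Log2 difference of CPM + 1 between interferon-responding and other epithelial cells, median over the genes of each list (number of genes in brackets), with 1 point per library (filled for replicate 1, open for replicate 2) and a bar at the median of the per-gene medians. Antiviral effectors (1.83), sensors (2.06) and interferon-gamma-led genes (2.58) stand to the right, while basal progenitor (-0.14), squamous differentiation (-0.34) and YAP target lists (0.02) lie near 0.

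Outside every list, the leading genes were largely of the same kind. Ifi47, an interferon-inducible GTPase, differed by 3.29, Slfn2 by 2.89, Rnf213 by 2.77, Sp100, a nuclear body component, by 2.35 and Apol9a by 2.22. Apol9b (1.88), Plac8 (1.79), Ifi202b (1.73), Tor1aip1 (1.44), Tor3a (1.40), Ly6a (1.32) and Tent5a (1.24) completed the 12 that the rule for named genes took. Ifi47 was at 22.6 to 101 CPM in members and 3.61 to 16.4 CPM in other cells.

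The rule asked for keratin UMIs and no Ptprc UMI in both classes, so members were epithelial by choice. Epithelial identity genes had a median of -0.13 with 0 of 9 higher in every library. Basal progenitor genes stood at -0.14 (1 of 13), squamous differentiation genes at -0.34 (0 of 13), G1/S genes at 0.09 (0 of 12), p53 targets at -0.04 (0 of 7), dissociation stress genes at -0.13 (0 of 12) and YAP targets at 0.02 (1 of 8). None of these medians was near those of antiviral effectors, sensors, interferon-gamma-led genes or MHC class I genes. Interferon receptors and kinases (-0.17) and feedback inhibitors (0.04) lay in the same range as the lists named here. Identity and squamous genes leaned down, with a positive median for 1 of 9 and 1 of 13, but 0 in either list were lower in every library. Genes of T and NK cells and of dendritic cells were present at overlapping summed levels in members and other epithelial cells, at 6.16 to 34.9 CPM against 5.87 to 29.9 CPM for T and NK cells and 25.1 to 45.2 CPM against 27.0 to 52.8 CPM for dendritic cells. The myeloid list summed to 5.71 to 819 CPM in members and 29.5 to 951 CPM in other cells, and was higher in members of 1 of 6 libraries. The dendritic sum in members was mostly Mfge8, at a mean of 36.0 CPM. Fibroblast genes summed to 76.0 to 1767 CPM in members and 37.2 to 1058 CPM in other cells, with Pdgfra at 0 in members. Nearly all of the member sum was Dcn, at a mean of 752 CPM. Col1a1, Col1a2, Col3a1 and Lum averaged 0.651, 0.177, 0.482 and 0.121 CPM in members. Fibroblast sums were lower in members of Y2 (76.0 against 367 CPM) and higher in members of EY2 (226 against 37.2 CPM). The T and NK marker Ncr1, the dendritic markers Flt3, Siglech and Clec9a, the endothelial markers Cdh5, Kdr and Emcn, the muscle markers Myh4 and Des and the melanocyte markers Tyrp1 and Mlana were at 0 in members. Erythroid genes summed to 2.79 to 34.2 CPM in members against 1.57 to 416 CPM in other cells, and were lower in members of 5 of 6 libraries. The part of these cell types in the results was not tested.

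Cxcl10, the chemokine that draws CXCR3-bearing T cells, had the largest median difference among chemokines (4.25) and was carried by few cells. It stood at 787, 813, 221, 833, 78.1 and 572 CPM in members of N1, E1, E2, Y1, Y2 and EY2, and at 14.2, 43.7, 4.17, 41.2, 7.11 and 67.3 CPM in other cells. Every member value exceeded every other value. Yet a Cxcl10 UMI was found in only 47.2% of the members of N1, 29.7% and 13.9% of those of E1 and E2, 36.7% and 8.33% of those of Y1 and Y2, and 45.5% and 43.6% of those of EY1 and EY2. In other epithelial cells that share was 3.09% for N1, 10.7% and 8.02% for the E libraries, 11.8% and 3.32% for the Y libraries, and 21.8% and 17.2% for the EY libraries. In E1, the 66 members with most Cxcl10 held 87.9% of its UMIs, and 1 member of Y1 had 322. Of the other chemokines, Ccl2 was higher in members of 5 of 6 libraries (median 1.43), Cxcl16 in 5 (0.57), Ccl5 in 3 (0.79) and Cxcl1 in 3 (0.18), and Cxcl2 in 0 (-0.57).

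In E1, E2, EY2 and N1, Cxcl10 was highest at the top of the marker gradient, while the class I light chain gene was already higher at its first step. In E1, Cxcl10 went from 9.4 CPM in cells with 0 markers to 79.2 CPM at 3, 140 CPM at 4, 393 CPM at 5 and 3386 CPM at 6. In EY2 it went from 19.0 CPM at 0 to 179 CPM at 4, 625 CPM at 5 and 1980 CPM at 6. In E2 it was 1.44 CPM at 4, 295 CPM at 5 and 1173 CPM in 10 cells at 6. N1 had 435 CPM at 4, 1091 CPM at 5 and 9734 CPM in its 1 cell at 6. Y1 had 441 CPM at 3, 353 CPM at 4 and 74.2 CPM at 5, but 12552 CPM in its 2 cells at 6. The rise did not hold in EY1, with 1104 CPM at 4, 652 CPM at 5 and 0 in its 1 cell at 6. B2m, the light chain of MHC class I, was already at 592 CPM with 1 marker in E1 against 368 CPM with 0, and at 1679 CPM with 6. Mcm3, a replication gene, showed no such order and stood at 62.9 CPM at 0, 94.8 CPM at 3 and 63.9 CPM at 6. Cells with 6 markers numbered 119 in E1 and 9 in EY2. Median UMIs were 12496 in E1 cells with 4 markers and 12078 in those with 3, and the part of depth in the gradient was not tested for single genes.

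**Figure D4:**
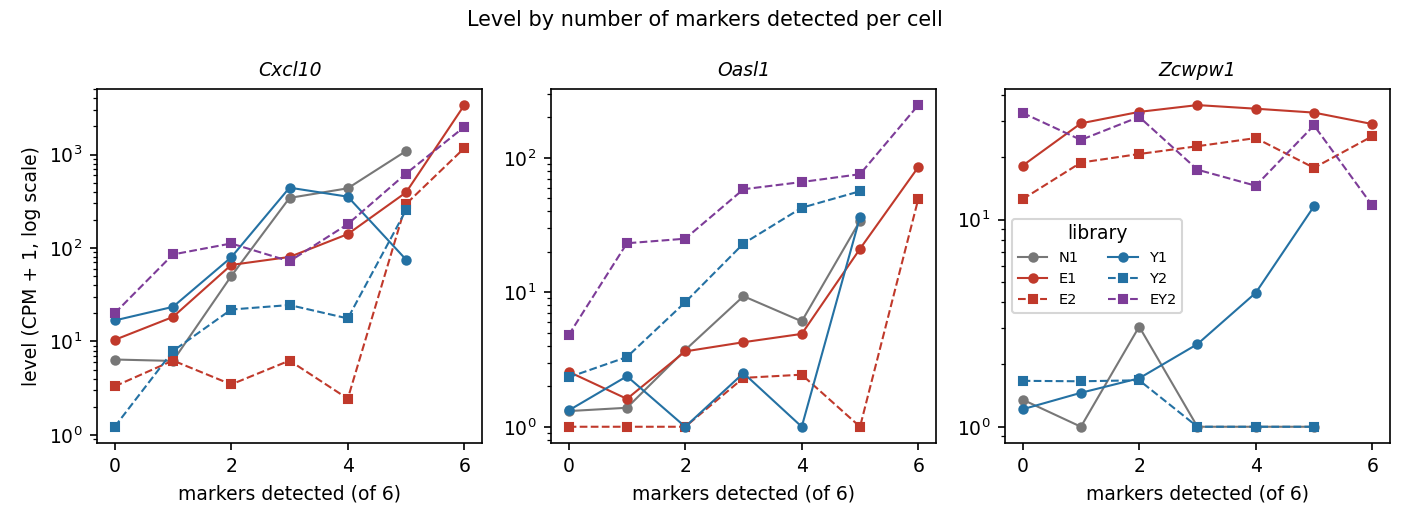
Level (CPM + 1, log axis) of Cxcl10, Oasl1 and Zcwpw1 by the number of interferon markers detected per epithelial cell, 1 line per library with at least 5 cells at each point. In E1 Cxcl10 goes from 9.4 CPM at 0 markers to 3386 CPM at 6 and Oasl1 from 1.57 CPM to 84.4 CPM, while Zcwpw1 lies between 17.2 CPM and 34.7 CPM throughout.

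Transcripts of the type I and type III interferons were rare. Ifng, the gamma interferon gene, was not, at 361 UMIs in Y2 to 6413 in Y1. Most Ifng UMIs of each library lay in immune cells, such as 5687 in Y1 and 314 in Y2. Ifnl2 and Ifnl3, the lambda interferons, had 382 UMIs in all 42550 barcodes, and 53 cells held a UMI of either or of Ifnb1. Of those 53 cells, 32 lacked Ptprc and had at least 0.5% keratin UMIs, 26 had 5 or 6 markers and 8 were members. The UMIs were concentrated, since 12 cells with at least 4 held 347 of them (90.8%), and 10 of these 12 had 5 or 6 markers. In E1, 7 members held 72 lambda UMIs and other epithelial cells held 3, and 1 member alone held 45. N1 had 2 lambda UMIs and N2 had 0. These cells were examined after their values were seen, and counts this small carry no comparison between groups.

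The next question was whether the response inside a member differed with E6-E7. UMIs were summed over members per library and fitted with edgeR's quasi-likelihood test in an additive model of E6-E7 and YAP, with E1, E2 and EY2 against N1, Y1 and Y2. Of 6612 genes tested, 0 passed an adjusted p of 0.05 (0%), 443 had an unadjusted p under 0.05, and DESeq2 called 9. Of these genes, 430 (6.5%) were higher in every library with E6-E7 than in every library without it. For YAP 127 genes passed (1.92%).

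The antiviral effectors were at similar levels in members with and without E6-E7. The median effect of the 38 tested was 0.12 on the log2 scale with 20 of 38 positive, beside -0.02 over all genes, and 3 of 38 were higher in every library with E6-E7. Interferon-gamma-led genes had a median of -0.68 with 1 of 12 positive, and MHC class I genes 0.10 with 12 of 18 positive. None of those genes passed the adjusted threshold, and the choice of members by the markers holds the markers' levels close to each other in both arms.

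G1/S and replication genes had the largest shift of any list with more than 2 genes tested. All 16 tested had a positive effect with a median of 1.61, and 11 of 16 were higher in every library with E6-E7, against 6.5% of all genes. Mcm3, a subunit of the replicative helicase, was at 90.8 CPM in E1, 57.9 in E2 and 112 in EY2, against 20.9 in N1, 18.2 in Y1 and 8.22 in Y2. The arms did not overlap, and the log2 effect was 2.49 (SE 0.40, edgeR adjusted p = 0.366). Mcm6 (1.77) and Mcm7 (1.63), of the same helicase, also had adjusted p = 0.366. In the other epithelial cells the list was much the same, with 20 of 21 positive, a median of 1.83 and 14 higher in every library, where 7.55% of 12404 genes were.

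Zcwpw1, a histone reader known from meiosis, was the only gene to pass in the other epithelial cells (1 of 12404, 0.00806%, where 1362 had an unadjusted p under 0.05 and DESeq2 called 305). In those cells it was at 28.7, 18.3 and 26.2 CPM in E1, E2 and EY2 and at 0.366, 0.381 and 0.618 CPM in N1, Y1 and Y2, a log2 effect of 5.88 (SE 0.32, edgeR adjusted p = 0.00846). In members it stood at 31.9, 21.2 and 18.1 CPM against 0, 6.61 and 0 CPM, with an effect of 3.20 (SE 0.87, edgeR adjusted p = 0.636). The arms were apart in both classes. The call in other cells rested on single libraries, since no gene passed without E1, Y1 or Y2 and the 1 gene called without EY2 was a lower one. A UMI of Zcwpw1 or of the meiotic cohesin genes Smc1b and Stag3 was found in 36.2% of members of E1, 36.1% in E2, 36.4% in EY1 and 27.3% in EY2, against 31.3%, 27.5%, 32.7% and 37.5% of the other cells. Members of N1 had 0 of 36, which allows a share of up to 8.33%, members of Y2 had 0 of 24, which allows up to 12.5%, and Y1 had 2 of 30.

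The interferon genes behaved differently in the other epithelial cells. There the E6-E7 effect was positive for 38 of 42 antiviral effectors, with a median of 1.18, beside 47.2% of all genes tested. Of the 42, 28 were higher in every library with E6-E7, beside 7.55% of 12404 genes, and 0 passed the adjusted threshold. Bst2, which tethers budding virus and is no part of the rule, was at 142, 138 and 156 CPM in E1, E2 and EY2 against 28.9, 57.3 and 82.7 CPM in N1, Y1 and Y2, an effect of 1.73 (SE 0.28, edgeR adjusted p = 0.103). The arms did not overlap, although it failed the adjustment.

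The difference between the classes was tested in 1 fit with library as a block. Of 11888 genes, 25 passed (0.21%), of which 24 had a lower E6-E7 effect in members than in other cells (0.202%) and 1 a higher one (0.00841%). Of the 24, 21 were in an interferon list and 5 of those were rule markers. Rtp4, a receptor chaperone with antiviral activity, had a difference of -2.31 (SE 0.22, edgeR adjusted p = 0.000779). Its levels with E6-E7 were 142, 117 and 76.8 CPM in members and 56.3, 47.2 and 27.2 CPM in other cells. Without E6-E7 they were 152, 116 and 152 CPM in members and 9.63, 10.4 and 16.8 CPM in other cells, so the arms overlapped in members and stood apart in the other cells.

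Other genes called the same way were Phf11d (-1.77), Eif2ak2, the kinase that stops translation on double-stranded RNA (-1.41), Xaf1 (-1.69), Oasl2 (-1.93), Ifitm3, a barrier to virus entry (-0.64), Igtp (-1.80) and Irf7 (-1.69). The 5 rule markers called are the rule's own genes, and nothing is read from them. Of the 24, 23 had a positive effect in other cells, and Cd74, the class II invariant chain (-1.50, edgeR adjusted p = 0.0492), was the exception. Sprr2d was the gene with a higher effect in members, and it was too low there to be tested alone. The limit of 4 markers keeps low cells out of the members and high cells out of the others, and genes that vary with the markers follow that limit, so the part of the rule in these calls cannot be told apart from a difference between cells.

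**Figure D5:**
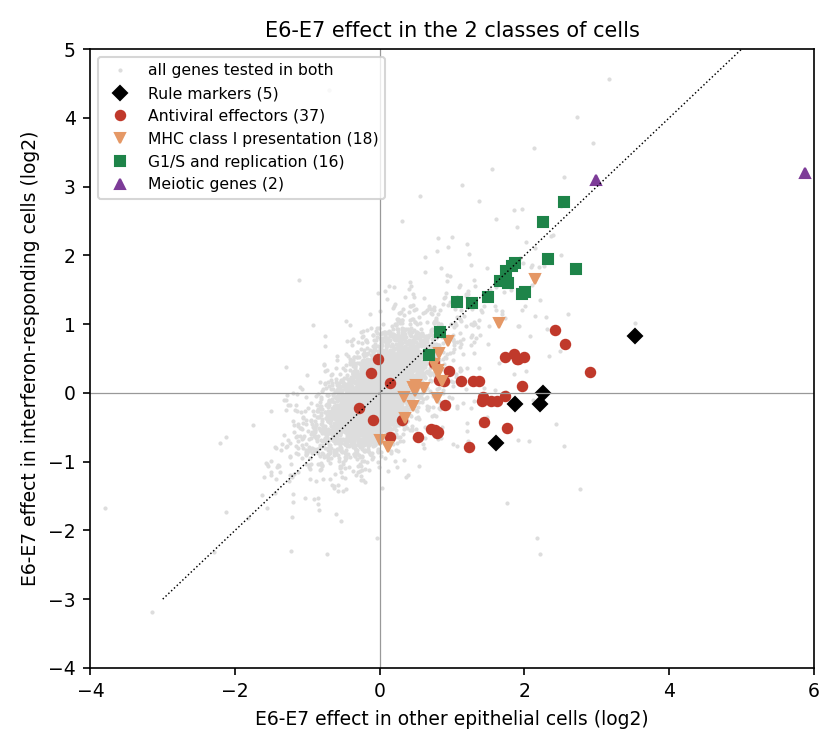
E6-E7 effect (log2 fold) per gene in other epithelial cells (x axis) and in interferon-responding cells (y axis), with gene lists in colour. Antiviral effectors spread along the x axis (median 1.18) around 0 on the y axis (median 0.12), while G1/S genes are shifted on both (1.83 and 1.61).

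Within the members, active YAP was compared over the same libraries. Of 127 genes called, 96 were higher with YAP (1.45%) and 31 lower (0.469%), in Y1, Y2 and EY2 against N1, E1 and E2. Of the 111 interferon-list genes tested, 1 was among them, beside 1.92% of all genes tested, and nothing is read from so small a count. It was Cxcl16, a membrane-bound chemokine, at 72.7, 144 and 128 CPM with YAP and 24.7, 26.3 and 20.9 CPM without (log2 2.34, SE 0.32, edgeR adjusted p = 0.0248). The antiviral effectors had a median effect of -0.08 with 16 of 38 positive. Genes led by interferon gamma had a median of -0.95 with 0 of 12 positive, and none of these passed. Outside the lists, Ifi202b (2.20, edgeR adjusted p = 0.0378) and Ifi211 (2.95, edgeR adjusted p = 0.0199), of the interferon-inducible p200 family, were called higher with YAP.

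The YAP target genes Amotl2 (2.94, edgeR adjusted p = 0.0281) and F3, tissue factor (3.87, edgeR adjusted p = 0.0333), were called higher with YAP in members. They were 2 of the 11 targets tested, beside 1.45% of all genes tested. The largest rises that met the rule for named genes were those of Crct1, a gene of the epidermal differentiation complex, Cryab, a small heat shock protein, Klk12, Mirt1 and S100a7a. Crct1 was at 266, 6477 and 1859 CPM in Y1, Y2 and EY2 against 0, 0.678 and 0.386 CPM in N1, E1 and E2. The arms did not overlap, which the rule for named genes required, and Y1 was far below the other YAP libraries. Apart from Crct1, with 161 UMIs, these genes rested on few transcripts in Y1, from 3 UMIs of Klk12 to 11 of Cryab.

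Of the genes that averaged 20 CPM or more in 1 arm, the largest falls were those of Egfl6 (-3.85), Smoc2 (-3.83), Sfrp1, a secreted Wnt antagonist (-3.12), Pappa, a protease of IGF-binding proteins (-2.78) and Has3, a hyaluronan synthase (-2.51). Sfrp1 was at 60.9, 111 and 95 CPM in N1, E1 and E2 and at 21.5, 6.16 and 2.79 CPM in Y1, Y2 and EY2. Pappa was at 135, 80.3 and 144 CPM against 14.9, 12.3 and 22.3 CPM. The rule for named genes required arms without overlap, and 864 of the 6612 genes tested were lower with YAP in that way. The myeloid genes S100a8 and S100a9, which keratinocytes also make, were called higher as well, but at 557 and 237 CPM in EY2 and 4.11 and 2.05 CPM in Y2, so the call followed EY2. The number of calls rested on single libraries, with 0 without EY2, 8 without N1, 19 without E1, 27 without E2, 47 without Y2 and 535 without Y1. With EY1 added it was 3, and without cells holding lineage UMIs 7, with 0 lower in both, so each fall named here lost its call there. Each rise named here lost its call without EY2, and at most 3 kept it with EY1 added. The same YAP contrast was not tested in the other epithelial cells, so none of these genes is called particular to the members.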

How the data were processed

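Libraries of sorted viable tongue cells were made with a 10x Genomics 3' kit. The authors ran Cell Ranger 5.0.0 (matrix header) on mm10 (submitters' processing notes) and deposited filtered matrices of unscaled UMI counts per gene and barcode, 1 per library. Their steps before deposit that remove doublets are not given in the sources used here, and no doublet caller was run. The limits on genes and UMIs served in its place.

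UMI counts were read as deposited for 32285 features. Cells were classified by the rule in the report, with cells of 2 or more mitotic genes (Mki67, Top2a, Cenpf, Nusap1, Aspm, Kif11) left out. Members, markers and gene lists were chosen with earlier results of these data known. Library totals ran from 46483469 to 102427359 UMIs, and the labels give no batch. Groups came from the genotype labels, with libraries numbered in accession order.

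Shares were compared by two-sided exact permutation tests over libraries. Counts summed per library and class (at least 20 members, 6 libraries) were fitted with edgeR 4.0.16 (R 4.3.3, filterByExpr, TMM, factors 0.985 to 1.018 in members and 0.936 to 1.043 in other cells, quasi-likelihood test) and Benjamini-Hochberg adjustment over all genes tested, and with DESeq2 1.42.0 as an alternative. A call is an adjusted p under 0.05. The fits leave 3 degrees of freedom over libraries, and p-values measure the spread between those libraries. The edgeR steps were tested on simulated data. CPM were computed per class and library from its summed UMIs. Python 3.11.15 and SciPy 1.17.1 were used elsewhere.

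Named genes were the 6 markers, up to 6 genes per interferon list with the largest absolute median difference between members and other cells at a mean of 20 CPM, the 5 largest rises and falls per contrast among calls without overlap at a mean of 20 CPM in 1 arm, and the 12 leading genes outside all lists at 50 CPM. Other lists are given by their counts, and 1 gene that the rule named is not reported here. Genes named beside these (Ifi27, Bst2, Ifi202b, Ifi211, Cxcl16, Zcwpw1, Mcm3, Mcm6, Mcm7, Yap1, Amotl2, F3, S100a8, S100a9, B2m, Dcn, Mfge8, the genes of the difference test and the interferons) were chosen after their values were seen. Alternatives were 3 or 5 markers, cells thinned to 2000 UMIs, no upper limits, a keratin floor of 2%, no cycling limit, cells without immune UMIs, no TMM factors, no filter on low counts, 10 members per library, a pseudocount of 10 CPM and each library left out. Cells without UMIs of 23 lineage genes, and cycling cells alone, were added after seeing the data.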

Additional observations from a re-analysis of the deposited data

Results flagged for a closer look

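The E6-E7 effect differed between interferon-responding and other epithelial cells for 25 genes in the test of the difference itself, as described above, and the rule that sorted the cells acts on those same genes.

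Lambda interferon UMIs lay in cells that the rule leaves out, outside the cells compared. Counting cells with at least 4, Ifnl2 and Ifnl3 had 75 UMIs in Y1, 69 in E2, 56 in EY2 and 85 in E1, and over all barcodes N1 had 2, N2 had 0, and Y2 and EY1 had 3 each. Counts in so few cells carry no comparison between groups. The Y1 cell held 59550 UMIs in total and the E2 cell with 63 lambda UMIs held 92374, above the limit of 30000, and the part of doublets in them was not tested.

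Cycling epithelial cells, left out by the rule, carried the interferon signature too. With at least 2 of the 6 mitotic genes, the share with 4 or more markers was 1.49% and 1.29% in the N libraries, 28.6% and 27.9% in the E libraries, 3.38% and 8.05% in the Y libraries, and 17.2% and 18.6% in the EY libraries. The difference with E6-E7 was 19.5 points, with every library with E6-E7 above every library without it (two-sided exact permutation p = 0.0286, the smallest possible, adjusted 0.0714). The markers were chosen from these data and this setting was added after seeing them, so the test is not independent evidence.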

How the results depend on the processing

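The epithelial share difference for E6-E7 kept its direction and its lack of overlap under every alternative run, at 27.8 points with 3 markers, 8.83 with 5 markers, 2.27 thinned and 13.5 to 19.9 with a library left out, and its adjusted p did not fall under 0.05 in any of them. Leaving out a library gave -11.4 to -2.06 points for YAP, 6.19 to 13.5 for immune cells with E6-E7, -9.49 to -2.04 for immune cells with YAP and 5.27 to 9.15 for epithelial minus immune, which turned to -3.08 on thinning. No paired analysis was possible because the labels give no replicate numbers shared between groups.

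Counts of called genes moved most. The cause was not tested, beyond the number of genes or libraries entering each fit. Under DESeq2 they were 9 for E6-E7 in members, 334 for YAP in members and 305 for E6-E7 in other cells. Without a filter on low counts they were 141, 921 and 1042, and 115 for the difference between classes. Without cells holding immune UMIs they were 7 for E6-E7 in members, 134 in other cells and 147 for the difference, from N1, E1 and E2 alone, so that the arm without E6-E7 was 1 library assumed to vary like the E libraries. With at least 10 members they were 3 for YAP and 80 in other cells. Without cells holding lineage UMIs they were 7 for YAP and 45 for the difference. With a library left out they ran from 0 to 2 for E6-E7 in members, 0 to 535 for YAP (19 without E1, 27 without E2, 47 without Y2), 0 to 998 in other cells (998 without N1, 0 without E1, Y1 or Y2) and 13 to 65 for the difference (13 without N1, 65 without E2, 57 without EY2, 38 without Y2). Fits of E6-E7 with 5 markers could not be made, since the libraries left (E1, E2 and EY2) all carried E6-E7. The fit of YAP in members without immune UMIs could not be made, since those left (N1, E1 and E2) all lacked YAP.

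Among single genes, thinning turned the difference between members and other cells for Dhx58 (-0.45), Jak1 (0.0185), Ifnar2 (0.30), Socs1 (-0.73), Otud4 (-2.87), H2-Q6 (-1.11) and Cxcl1 (-1.59), and leaving out cells with immune UMIs turned Ifngr1 (0.18) and Ccl5 (-0.64). Thinned members numbered 138, so levels of low genes there rest on few UMIs. The antiviral median stayed at 1.40 to 1.84. N2 and EY1 had few epithelial cells, with 260 and 112 of them. In EY1 median UMIs also rose with the markers, from 6247 at 0 to 27631.5 at 5, with 9741 in its 1 cell at 6. Thinned to 2000 UMIs, EY1 kept 1 responding cell, and the part of depth in its share was not tested further.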

Other observations

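Responding immune cells shared the antiviral program and differed in some of its parts, given here as values. The median log2 difference between responding and other immune cells was 1.96 for antiviral effectors and 2.22 for sensors, beside 1.83 and 2.06 in epithelial cells, while interferon-gamma-led genes were at 1.60 beside 2.58 and MHC class I genes at 0.55 beside 1.04. Ifit2 averaged 437 CPM in responding immune cells and 41.0 CPM in epithelial members, and Ifi44 averaged 55.0 CPM and 183 CPM. Immune values came from N2, E1, E2, Y1, Y2 and EY1, epithelial values from N1, E1, E2, Y1, Y2 and EY2, and the classes were not tested against each other.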
